A study of Mus musculus with 18 samples.

Results

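The mitotic kinases are the 10 genes Cdk1, Mastl, Plk1, Aurka, Nek2, Plk4, Aurkb, Ttk, Melk and Pbk, taken by name from the array's annotation. They were read by 20 probe sets that name 1 of these genes and no other, among 18193 genes measured this way and 45037 probe sets that are not array controls. No member was left out for a low value. The series set 9 TRAMP tumours against 9 normal mouse prostates (ventral and dorsolateral lobes), with total RNA of each sample on 1 Affymetrix array. TRAMP stands for Transgenic Adenocarcinoma of the Mouse Prostate, a mouse line in which SV40 T antigens are expressed from a rat probasin promoter in prostate epithelium. The labels give no strain, age or littermate status for either group, and do not say whether animals were pooled or whether each sample was a separate animal. The p-values therefore measure the spread between these samples, which may be technical, and the number of arrays limits their precision.

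Mitotic kinases are enzymes whose RNA and protein build up late in the cell cycle and which phosphorylate the proteins that condense chromosomes, separate centrosomes, build the spindle and time the split of sister chromatids. Resting cells keep most of them low, so their RNA in a tissue is commonly read beside the amount of cell division in it. In the normal adult prostate the secretory epithelium divides slowly. In a bulk sample, more cells that express a gene and more RNA per such cell cannot be told apart.

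Many promoters of genes expressed late in the cell cycle hold a TTTGAA element, called the cell cycle genes homology region, a short distance from CCAAT boxes, which the factor NF-Y binds. RefSeq windows of build GRCm38.p6, from 250 bases before to 50 after the annotated start, matched 8 of the 10 genes. TTTGAA, read on either strand (TTCAAA on the other), was in 4 of these 8, and in 18.1% of 27025 mouse promoter windows of 300 bases. CCAAT, or ATTGG on the other strand, was in 6 of 8, against 37.9% of all windows. Both were in 4 of 8, against 7.12% of all windows. The E2F letters TTCGCGC or TTGGCGC, or their complements, were in 1 of 8, Cdk1, against 3.98%. No match of one motif overlapped a match of another in these 8 windows. The windows of Cdk1, Plk1, Aurka and Ttk are shown from 150 bases before to 50 after the start because they hold both elements, and that of Melk because the gene with the largest rise below holds neither. They lie at chr10:69352863-69353062 (minus strand), chr7:122159285-122159484 (plus), chr2:172370521-172370720 (minus), chr9:83834539-83834738 (plus) and chr4:44300767-44300966 (plus). Capitals mark TTTGAA and CCAAT on either strand.
Cdk1: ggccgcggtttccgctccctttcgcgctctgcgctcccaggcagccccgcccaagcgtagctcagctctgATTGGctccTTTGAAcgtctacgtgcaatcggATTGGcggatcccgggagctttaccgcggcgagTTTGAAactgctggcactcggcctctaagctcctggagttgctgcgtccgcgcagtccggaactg
Plk1: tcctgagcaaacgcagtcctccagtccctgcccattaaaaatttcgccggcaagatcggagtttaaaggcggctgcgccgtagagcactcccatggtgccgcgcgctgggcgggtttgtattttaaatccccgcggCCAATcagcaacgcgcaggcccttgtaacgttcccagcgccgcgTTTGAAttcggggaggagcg
Aurka: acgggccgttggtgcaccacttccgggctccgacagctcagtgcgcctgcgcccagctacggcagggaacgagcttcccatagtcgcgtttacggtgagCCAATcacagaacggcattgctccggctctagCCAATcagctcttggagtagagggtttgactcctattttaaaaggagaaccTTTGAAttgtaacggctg
Ttk: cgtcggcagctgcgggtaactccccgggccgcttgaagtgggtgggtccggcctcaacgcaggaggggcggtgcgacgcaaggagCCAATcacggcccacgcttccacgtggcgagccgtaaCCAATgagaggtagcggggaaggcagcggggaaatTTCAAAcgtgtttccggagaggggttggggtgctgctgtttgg
Melk: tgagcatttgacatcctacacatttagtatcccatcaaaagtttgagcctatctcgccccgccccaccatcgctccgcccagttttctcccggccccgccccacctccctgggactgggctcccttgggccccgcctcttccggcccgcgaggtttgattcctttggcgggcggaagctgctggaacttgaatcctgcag
In Cdk1 TTTGAA began 71 and 15 bases before the start, downstream of CCAAT boxes read on the other strand that began 80 and 48 bases before it. In Plk1, Aurka and Ttk it lay after the start, beginning 31, 33 and 8 bases into the transcript. A match is a description of these letters and not of a bound site.

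Among the normal prostates, number 9 went against its label. On normal prostate 9 the prostate genes Pbsn (probasin), Hoxb13 and Spink1 measured 4.18, 4.50 and 4.60 on the log2 scale, against 8.08 to 14.43, 10.85 to 13.58 and 14.94 to 16.24 on the other 8 normal arrays. Its summed seminal vesicle signal was the highest of the normal prostates. Without it all 10 kinases were still called higher, with a median log2 fold change of 2.53.

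All 10 mitotic kinases were higher in TRAMP tumours than in normal prostates, and none was lower. Here called means an adjusted p under 0.05 from limma over all 45037 probe sets, with each gene read by the probe set that had the highest mean over all 18 arrays. Across all genes 6.91% were called higher by this rule and 7.44% lower, 1258 and 1354 of 18193. Rises made up 48.2% of the calls over all genes, and 36.4% after centring each array at its 75th percentile, a scaling under which all 10 kinases were still called higher. The median log2 fold change of the 10 was 2.53, with a range of 1.69 to 3.99, and the median over all genes was -0.0036. For 6 of the 10 every tumour lay above every normal prostate, which was so for 1.11% of all genes; 0.676% of all genes had every tumour below every normal prostate, and no kinase did. Values are log2(signal + 16), a scale on which the change of dim genes is understated. Values under the 40th percentile of all probe sets on the same array are called dim, and "floored" gives the log2 difference after dim values were raised to that percentile.

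**Figure D1:**
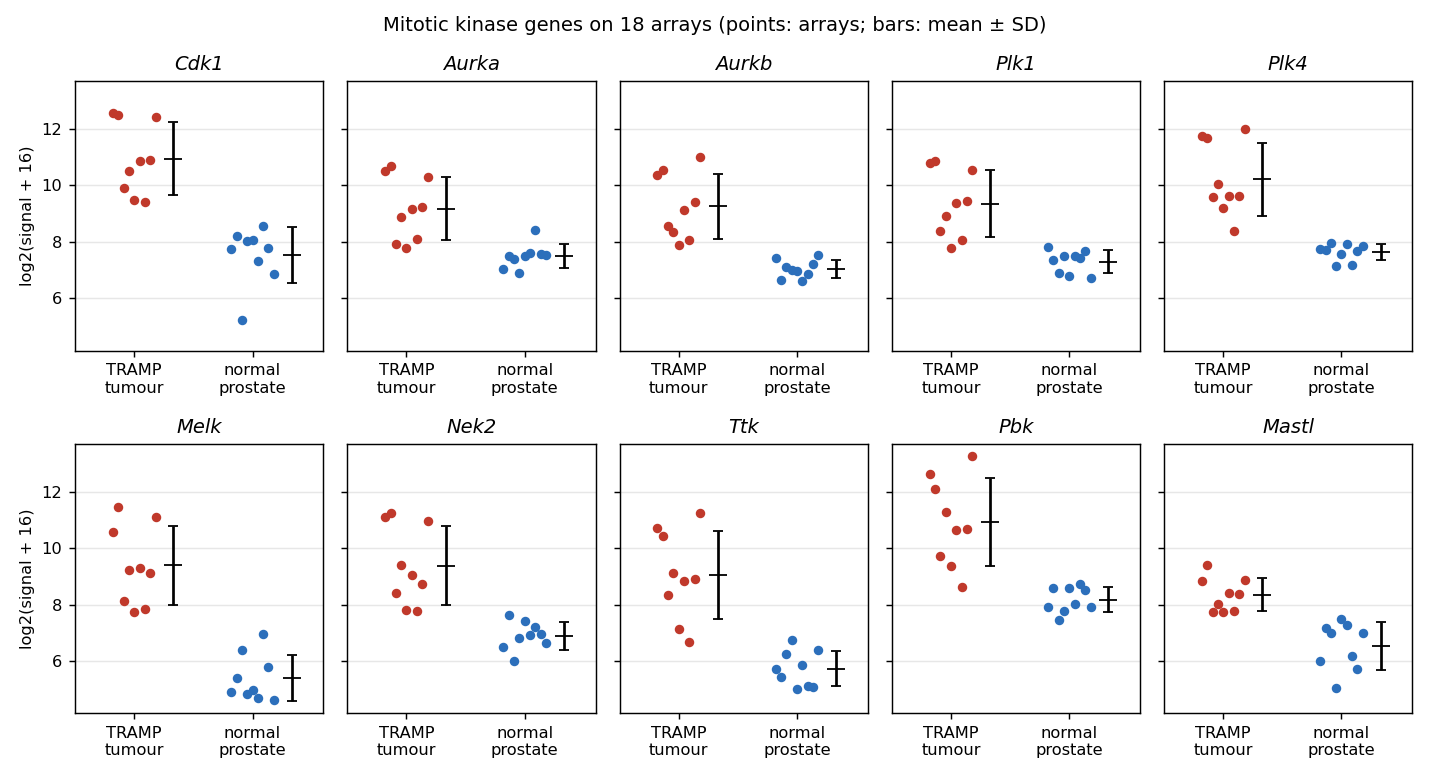
Values of the 10 mitotic kinases, log2(signal + 16) on the vertical axis, on 9 TRAMP tumour arrays (left, red) and 9 normal prostate arrays (right, blue) in each panel. Points are arrays, and the black bars give mean ± SD. The groups do not overlap for Cdk1, Aurkb, Plk4, Melk, Nek2 and Mastl, and 3 tumours stand above the other tumours in every panel.

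Of the kinases that start mitosis, Cdk1 is the cyclin-dependent kinase that drives entry. Its probe set 1448314_at had a lowest, median and highest value of 9.42, 10.86 and 12.58 in TRAMP tumours, against 5.22, 7.79 and 8.57 in normal prostates. Every tumour lay above every normal prostate, and normal prostate 3, at 5.22, stood below the other normals. Cdk1 rose by 3.42 ± 0.502 SE (95% interval 2.37 to 4.47, limma adjusted p = 0.000314). Mastl, the Greatwall kinase that keeps the opposing phosphatase PP2A-B55 in check during mitosis, measured 7.74, 8.39 and 9.39 in tumours (lowest, median, highest), against 5.02, 6.98 and 7.47 in normal prostates (probe set 1423525_at). Its groups did not overlap either, but its tumours were the closest together of all members, with an SD of 0.587. Mastl rose by 1.81 ± 0.325 SE (floored 1.16, limma adjusted p = 0.00147). Plk1, the polo-like kinase that acts at centrosomes, kinetochores and the cleavage plane, measured 7.78, 9.36 and 10.88 in tumours and 6.70, 7.44 and 7.82 in normal prostates (1448191_at). Only tumour 5, at 7.78, was under the highest normal prostate, number 1 at 7.82. Plk1 rose by 2.06 ± 0.39 SE (limma adjusted p = 0.00225).

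At the centrosome and spindle poles, Aurka encodes aurora A, which matures centrosomes and helps build a bipolar spindle. It had the smallest rise of the 10 and the widest overlap: 7.78, 9.17 and 10.67 in tumours, against 6.90, 7.48 and 8.41 in normal prostates (1424511_at). Tumours 3, 5 and 7, at 7.93, 7.78 and 8.10, lay below normal prostate 7 at 8.41, and above each of the other normals. The difference was 1.69 ± 0.376 SE (95% interval 0.90 to 2.48, limma adjusted p = 0.00661). Nek2, a kinase that loosens the link between centrosomes before they part, measured 7.76, 9.03 and 11.24 in tumours and 5.98, 6.90 and 7.62 in normal prostates (1437580_s_at). The groups lay apart, with the lowest tumours close to the highest normals, and the gene rose by 2.49 ± 0.458 SE (limma adjusted p = 0.00182). Plk4, the kinase that starts centriole duplication, was bright enough to be above the dim level on all 18 arrays. It measured 8.37, 9.62 and 12.00 in tumours, against 7.16, 7.71 and 7.94 in normal prostates (1419838_s_at), with no overlap. Plk4 rose by 2.58 ± 0.411 SE (limma adjusted p = 0.000605).

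On chromosomes, Aurkb is the kinase of the chromosomal passenger complex, which corrects wrong attachments of chromosomes to the spindle. It measured 7.88, 9.13 and 11.02 in tumours, against 6.63, 7.01 and 7.55 in normal prostates (1424128_x_at). No tumour overlapped a normal prostate, and Aurkb rose by 2.21 ± 0.375 SE (limma adjusted p = 0.000981). Ttk, the MPS1 kinase that starts the spindle checkpoint, was dim on all 9 normal arrays and on 2 tumour arrays (1449171_at). Its tumours spanned 6.67 to 11.25 with a median of 8.92, against 5.01 to 6.73 with a median of 5.73 in normal prostates. Tumour 7 at 6.67 was the only tumour under a normal prostate, number 4 at 6.73. Set against the dim level of the normal arrays, the tumours' Ttk signal was at least 3.80-fold higher (limma adjusted p = 0.000499, fitted log2 fold change 3.32 ± 0.518 SE).

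Melk and Pbk are kinases best known from rapidly dividing cells, Melk a relative of the AMP-activated kinases and Pbk a PDZ-binding kinase active in mitosis. Melk was dim on all 9 normal arrays and on no tumour array (1416558_at). Tumours measured 7.74, 9.23 and 11.47, against 4.62, 4.96 and 6.94 in normal prostates, with no overlap. The tumours' signal was at least 4.81-fold higher (limma adjusted p = 9.93e-05), and the fitted log2 fold change of 3.99 ± 0.5 SE was the largest of the 10 genes. Pbk had tumours at 8.64, 10.69 and 13.26, against 7.47, 8.01 and 8.73 in normal prostates (1448627_s_at). Its tumours were the most spread after Ttk, with an SD of 1.55, and tumour 7 at 8.64 was under normal prostate 7 at 8.73. Pbk rose by 2.76 ± 0.498 SE (limma adjusted p = 0.00154).

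Other probe sets of these genes mostly moved the same way. Of the 20 probe sets 17 were called higher, none was lower and 3 were not called, where 6.16% of all probe sets were called higher. Aurkb has a second probe set, 1451246_s_at, at 2.67 ± 0.436 SE (floored 1.66). Ttk has a second, 1442594_at, at 2.73 ± 0.345 SE (floored 1.24), with no overlap between groups. Both were dim on all 9 normal arrays. The remaining Plk4 probe sets gave 1.49 (floored 1.36) and 2.17 (floored 1.28), the latter dim on 8 normal arrays. Those of Mastl gave 1.18 (floored 0.63) and 1.67 (floored 0.71), each dim on all 9 normal arrays. Aurka and Nek2 were the members whose probe sets disagreed. For Aurka, 1440129_at was dim on 8 tumour and all 9 normal arrays and measured 5.94 ± 0.712 in tumours and 5.42 ± 0.675 in normal prostates (limma adjusted p = 0.305). For Nek2, 1417299_at, dim on 7 normal arrays, rose by 1.94 ± 0.387 SE (floored 1.63). However, 1437579_at measured 7.57 ± 0.243 in tumours and 7.23 ± 0.46 in normal prostates (limma adjusted p = 0.239), and 1443999_at, dim on 6 tumour and all 9 normal arrays, had a limma adjusted p of 0.0516. Aurkb and Pbk were read only by probe sets whose suffix, _x or _s, says that they can match more than 1 transcript.

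**Figure D2:**
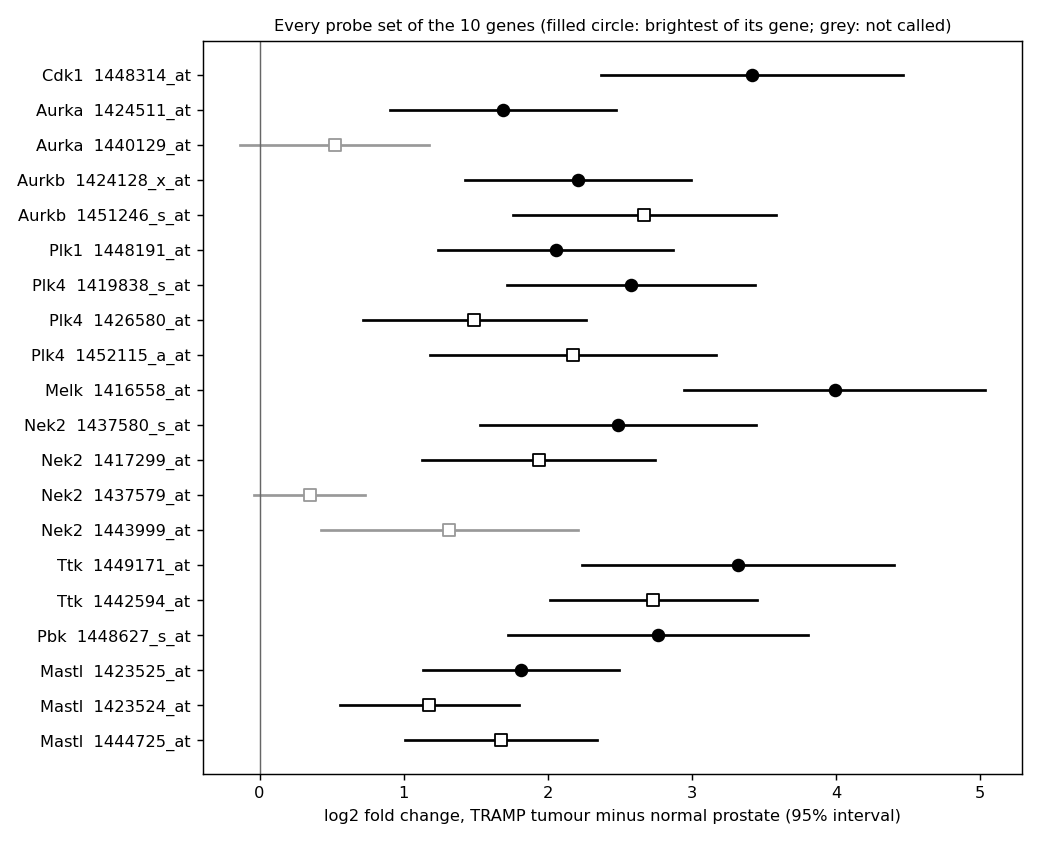
Log2 fold change with its 95% interval, TRAMP tumour minus normal prostate, for all 20 probe sets of the 10 genes (rows). Filled circles are the brightest probe set of each gene, open squares the others, and grey marks those not called. The 3 grey probe sets are 1 of Aurka and 2 of Nek2. All 20 estimates lie to the right of 0, as does the whole interval of the grey Nek2 probe set 1443999_at.

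The tumours differed from each other more than the normal prostates did, and the kinases ranked them much alike. The SD was larger in tumours for 9 of the 10 genes, all but Mastl, with a median SD of 1.28 in tumours and 0.470 in normal prostates. No share over all genes stands beside this count, so it is not a trait particular to the kinases. For each of the 10 genes the 3 highest tumours were numbers 1, 2 and 9. For Cdk1 these measured 12.58, 12.50 and 12.43, and the next tumour 10.89. Tumours 3, 5 and 7 were the 3 lowest for 9 of the 10 genes; for Aurkb tumour 4, at 8.35, was below tumour 3, at 8.56. For Cdk1 the gap below tumour 9 took up 48.8% of the tumours' range, the largest share of the 10 genes. The widest gap passed 33% of the range for 6 of the 10, and for Pbk it was 20.3%, with 6 tumours above it. Since the tumours fell into separate levels for most members, no correlation over all 9 tumours is given between members. Tumours 3 to 8, below the widest gap for most members, were taken after these values were seen. Within tumours 3 to 8, the 45 pairs of members had a median Pearson r of 0.874 (0.463 to 0.983) and a median Spearman rho of 0.771 (lowest 0.543). By exact permutation over all pairings, 9 pairs passed by r and 3 by rho at an adjusted p under 0.05, the adjustment taken over the 45 pairs. Tumours 3, 5 and 7 lay below 4, 6 and 8 for 9 of the 10 genes, a split that raises r by itself. Tumours 6 and 8 were close for several genes, at 9.62 each for Plk4 and 9.17 and 9.22 for Aurka, yet entered as separate samples. These values therefore cannot show that members vary together beyond that split. For each pair r was also taken without the 2 tumours farthest from the median of its first gene. Over the 4 left, r ranged from 0.307 to 0.995.

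Seminal vesicle genes ran opposite to this order in part. The summed signal of Svs4, Svs5, Svs2, Svs6 and Pate4 (log2) was 17.5, 17.9 and 17.6 in tumours 3, 5 and 7, the lowest in kinases, and 14.9 in each of tumours 6 and 8. It was 8.1, 10.7 and 6.9 in tumours 1, 2 and 9, and 12.0 in tumour 4. Among normal prostates it was 16.7 on number 9 and 7.9 to 11.3 on the others. All 10 kinases were called higher without normal prostate 9 and tumours 3, 5 and 7, with a median log2 fold change of 3.16. That fit leaves out the tumours lowest in the kinases, so the larger difference follows from the choice of arrays. It cannot separate seminal vesicle tissue from the order of the tumours. Other tissue sums also ran opposite to the kinases in part. Tumours 1, 2 and 9 were the 3 lowest in smooth muscle genes, at 14.1, 12.3 and 11.3 against 14.4 to 16.6 in the other tumours. They were also the 3 lowest in basal epithelium genes, at 8.65, 10.1 and 8.10 against 10.4 to 14.4, and in urothelium genes, at 9.65, 9.49 and 9.81 against 11.3 to 15.8. The part of these tissues in the order of the tumours was not tested.

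**Figure D3:**
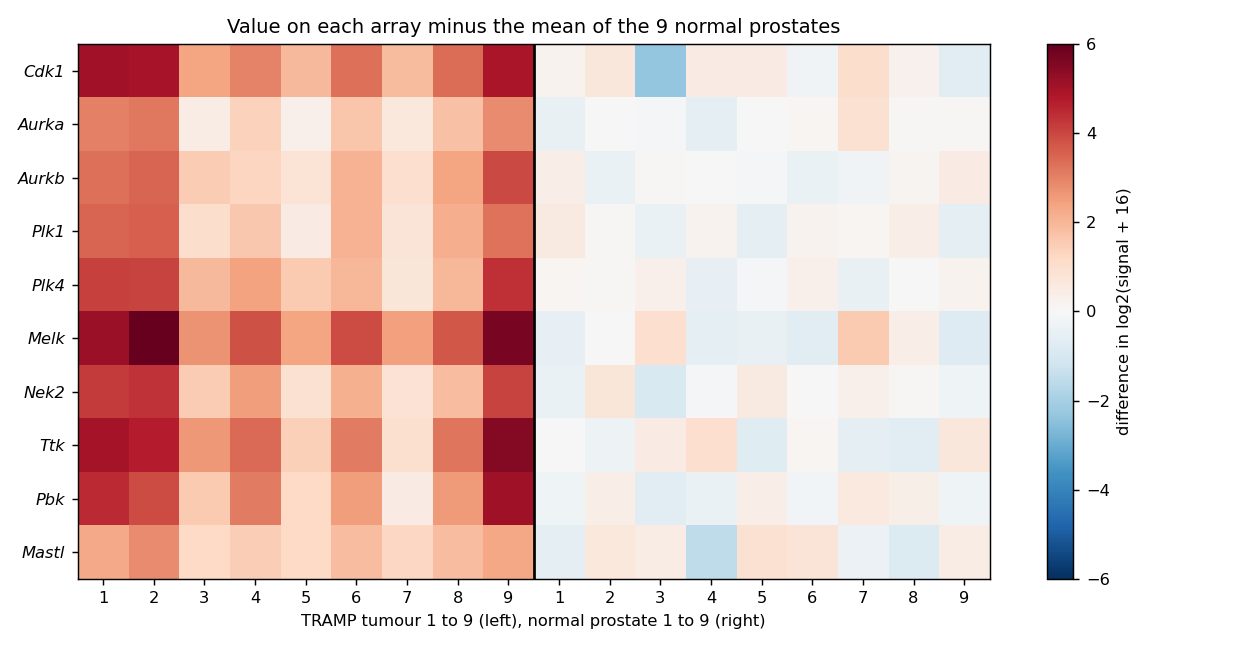
Colour gives log2(signal + 16) on each array minus the mean of the 9 normal prostates for each kinase (rows), with TRAMP tumours 1 to 9 on the left and normal prostates 1 to 9 on the right of the black line. Red is above and blue below that mean. Tumours 1, 2 and 9 are darkest in every row, tumours 3, 5 and 7 are palest in nearly all, and Cdk1 on normal prostate 3 is the deepest blue.

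The genes whose pattern over the 9 tumours was most like the mean of the members' standardized values, among 12771 genes above the low-value filter, were Cdc20, Bub1, Birc5, Tmpo and Ska3. Their Pearson r lay between 0.992 and 0.995, the highest of very many values and a description of these 9 arrays with no test. Cdc20 activates the ubiquitin ligase that ends mitosis, Bub1 is a checkpoint kinase, Birc5 is survivin, Tmpo encodes lamina-associated polypeptides and Ska3 a protein of the outer kinetochore. All of these were also called higher, Tmpo by 1.75 ± 0.264 SE and Ska3 by 2.65 ± 0.39 SE (limma adjusted p = 0.000397 and 0.000318).

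Partners that switch the kinases on or off rose in most cases. Of 9 measured genes that control CDK1, 8 were higher and 0 lower, with a median log2 fold change of 2.07. The S phase and mitotic cyclin Ccna2 rose by 3.34 ± 0.438 SE, the phosphatase Cdc25b by 2.07 ± 0.241 SE and Ccnb2 by 2.38 ± 0.423 SE. Wee1, a kinase that inhibits CDK1, was also higher, by 1.01 ± 0.158 SE. The small CDK-binding protein Cks1b measured 13.31 ± 0.534 in tumours and 12.50 ± 0.605 in normal prostates (limma adjusted p = 0.0515), and its second probe set was called higher by 1.44.

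Among 9 measured partners of the aurora kinases 7 were higher and 0 lower, with a median of 2.65. Cdca8 and Incenp, subunits of the passenger complex with Aurkb, rose by 2.75 ± 0.418 SE and 2.77 ± 0.439 SE. Haspin, the kinase that marks histone H3 for that complex, and the kinesin Kif20a were dim in every normal prostate, and in tumours at least 2.54-fold and 2.45-fold higher. Tpx2, which activates aurora A, gave opposed readings. Its brightest probe set measured 9.58 ± 0.322 in tumours and 10.06 ± 0.433 in normal prostates (limma adjusted p = 0.112). A pair of dimmer ones, dim on 9 and 8 of the normal arrays, were called higher by 2.55 and 2.92, and a further bright one was not called. Ajuba, another activator of aurora A, measured 9.52 ± 1.39 in tumours and 9.29 ± 0.453 in normal prostates (limma adjusted p = 0.794).

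Spindle checkpoint genes included 6 higher and 0 lower of 10, with a median of 1.87. The checkpoint kinases Bub1 and Bub1b and the kinetochore gene Ndc80 were dim in every normal prostate, and in tumours at least 4.82-fold, 3.16-fold and 2.41-fold higher. Trip13, an ATPase that resets the checkpoint, rose by 2.47 ± 0.427 SE. Bub3 measured 11.73 ± 0.548 in tumours and 11.23 ± 0.199 in normal prostates (limma adjusted p = 0.119), with 1 of its other probe sets called higher. Zwint, not called by its brightest probe set, also had a dimmer one called higher, by 0.69. Mad1l1 measured 6.40 ± 1.13 in tumours and 5.67 ± 1.88 in normal prostates (limma adjusted p = 0.527). Its normal mean rested on normal prostate 9, at 10.60 where the other normals lay between 4.71 and 5.65, and without that array the difference was 1.35 in place of 0.73, with no test. Of 8 genes that work with Plk4 at the centriole, 4 were higher and 0 lower, with a median of 0.82. Stil, which Plk4 phosphorylates, rose by 2.26 ± 0.39 SE (floored 1.77), Cenpj by 1.10, Sass6 by 1.08 and Cep192 by 0.75. The Plk4 scaffold Cep152 measured 7.82 ± 0.602 in tumours and 6.95 ± 0.96 in normal prostates (limma adjusted p = 0.125).

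Of 7 measured Mastl substrates and subunits of the phosphatases around it, 1 was higher and 1 lower, with a median of 0.14. Arpp19, a Mastl substrate that inhibits PP2A, was lower, at 11.10 ± 0.45 in tumours and 11.81 ± 0.47 in normal prostates (limma adjusted p = 0.0411). That was the brightest of 3 Arpp19 probe sets, and the others were not called, with differences of 1.03 and 0.24 in the other direction (limma adjusted p = 0.0661 and 0.482). Ppp1cc, a catalytic subunit of PP1, rose by 0.49 ± 0.132 SE. Ppp1ca measured 12.63 ± 0.315 in tumours and 12.31 ± 0.379 in normal prostates, and Ppp2ca 12.80 ± 0.342 in tumours and 13.05 ± 0.186 in normal prostates (limma adjusted p = 0.255 and 0.306). Genes of the anaphase-promoting complex and its regulators showed 3 higher and 0 lower of 15, with a median of 0.26. The 3 were the activator Cdc20 at 3.24 ± 0.457 SE, the ubiquitin-conjugating enzyme Ube2c at 3.43 ± 0.535 SE and the inhibitor Fbxo5 at 3.13 ± 0.489 SE. The partner enzyme Ube2s measured 11.55 ± 0.901 in tumours and 10.82 ± 0.313 in normal prostates (limma adjusted p = 0.128). The core subunit Anapc5 measured 12.96 ± 0.506 in tumours and 12.50 ± 0.123 in normal prostates (limma adjusted p = 0.117), with 3 of its dimmer probe sets called higher. Anapc1, not called by its brightest probe set, had a dimmer one called higher, by 0.77.

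Family relatives of the members gave 6 higher and 1 lower of 29, with a median of 0.10. Cdk2, the S phase kinase, rose by 1.24 ± 0.23 SE and Cdk17 by 0.59 ± 0.135 SE. Plk2, a stress-responsive polo-like kinase, rose by 1.55 ± 0.369 SE, while Prkaa2, a catalytic subunit of the AMP-activated kinase, fell by 1.29 on the log2 scale (limma adjusted p = 0.00226). The largest differences not called were those of Nek7 and Plk3. Nek7 measured 11.50 ± 0.649 in tumours and 12.17 ± 0.235 in normal prostates, and Plk3 6.61 ± 1.07 in tumours and 6.05 ± 1.33 in normal prostates (limma adjusted p = 0.0635 and 0.544). Both other probe sets of Nek7 were called lower, by log2 fold changes of -0.58 and -1.20. Other kinases with work in division, a list that shares Nek6, Nek7 and Nek9 with the relatives, gave 6 higher and 0 lower of 14 by the brightest probe set, among them Haspin, Bub1, Bub1b and Wee1, already described. Slk measured 10.23 ± 0.56 in tumours and 9.65 ± 0.416 in normal prostates (limma adjusted p = 0.113). Cit, the citron kinase of cytokinesis, was not called by its brightest probe set (limma adjusted p = 0.169), but its other 3 were called higher, by 2.51, 2.18 and 1.82. It was named after its values were seen.

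**Figure D4:**
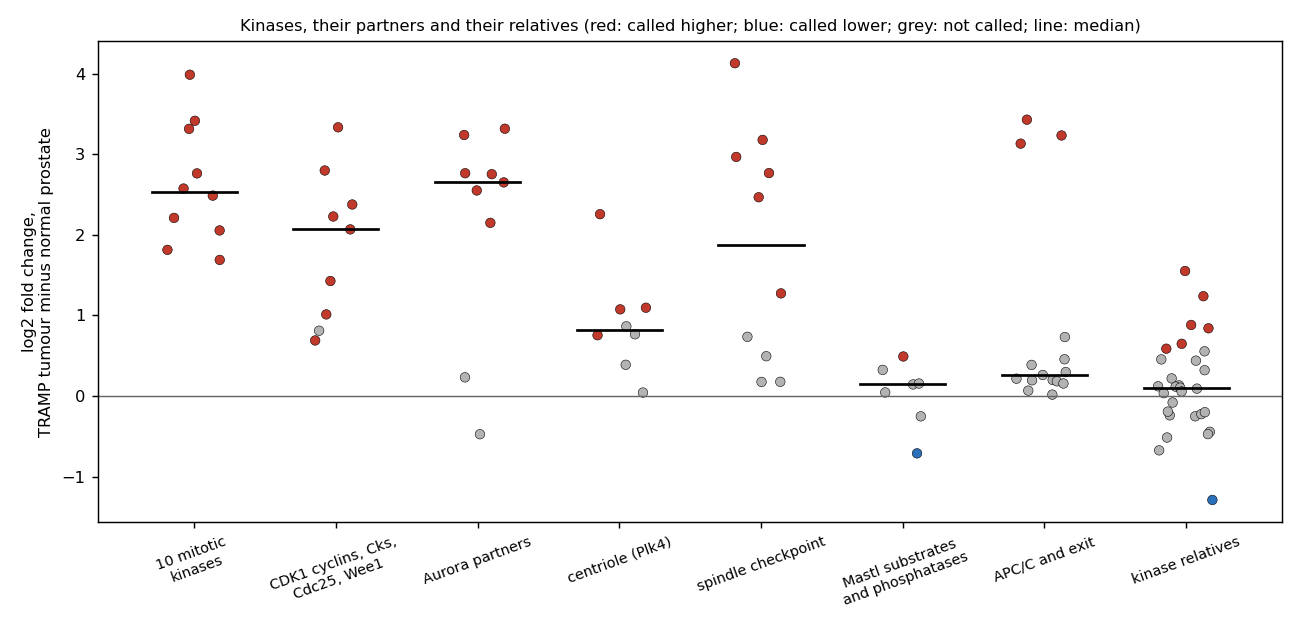
Log2 fold changes, TRAMP tumour minus normal prostate, of the 10 mitotic kinases and of 7 lists of partners and relatives, a point per gene. Red genes were called higher, blue lower and grey not, and the line is the list's median. The kinases lie between 1.69 and 3.99, and the medians run from 2.65 for the aurora partners to 0.10 for the kinase relatives.

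Transcription factors that act on promoters of these genes, and their opponents, gave 8 higher and 1 lower of 16, with a median of 0.84. The repressing E2F genes E2f7 and E2f8 rose by 2.97 ± 0.368 SE (floored 2.06) and 3.51 ± 0.514 SE (floored 2.28), the pocket protein gene Rbl1 by 1.61 ± 0.264 SE and E2f1 by 1.47 ± 0.257 SE. Rb1 measured 10.79 ± 0.955 in tumours and 10.11 ± 0.279 in normal prostates, and E2f5 9.70 ± 0.514 in tumours and 9.35 ± 0.381 in normal prostates (limma adjusted p = 0.176 and 0.32). Foxm1, an activator of mitotic genes, was named after its values were seen because its probe sets disagreed. The brightest measured 9.43 ± 0.449 in tumours and 9.30 ± 0.306 in normal prostates, 2 dimmer ones were called higher by 1.22 and 1.76, and 1 that was dim on all 18 arrays was called lower. Rbbp4, not called by its brightest probe set, had a dimmer one called higher, by 1.18.

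To ask whether the kinases moved by another amount than genes of DNA replication on the same arrays, the mean of the 6 helicase genes Mcm2 to Mcm7 was subtracted on each array. That mean was 11.65 ± 0.991 in tumours and 9.15 ± 0.236 in normal prostates, a difference of 2.51. The median over all genes was -0.0036, so a smaller rise than that of the helicase genes is common to most genes. The share of all genes that this comparison would call was not computed. Aurka rose less than the helicase genes: its value relative to them was -2.47 ± 0.517 in tumours and -1.66 ± 0.33 in normal prostates, and all 9 tumours lay below the median normal prostate (exact two-sided permutation over 48620 splits, p adjusted over the 10 genes = 0.00823). Melk rose more, by 1.48, and all 9 tumours lay above the median normal prostate (adjusted exact permutation p = 0.00782). Melk was dim on every normal array, however, and its floored difference of 2.26 was below that of the helicase genes. Cdk1 passed narrowly, with a difference of 0.91 (adjusted exact permutation p = 0.0448), a call that was lost in 11 of the 18 fits that left out 1 array, the highest adjusted p of 0.0862 coming without normal prostate 3. The other 7 differences were not called and lay between -0.69 for Mastl and 0.81 for Ttk. With a pseudocount of 64 in place of 16, Aurka, Aurkb, Plk1 and Mastl rose less (adjusted exact permutation p up to 0.0274) and Melk and Cdk1 were no longer called (both 0.0552). Without normal prostate 9 and tumours 3, 5 and 7 the Aurka difference was -0.67 (adjusted exact permutation p = 0.0611).

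**Figure D5:**
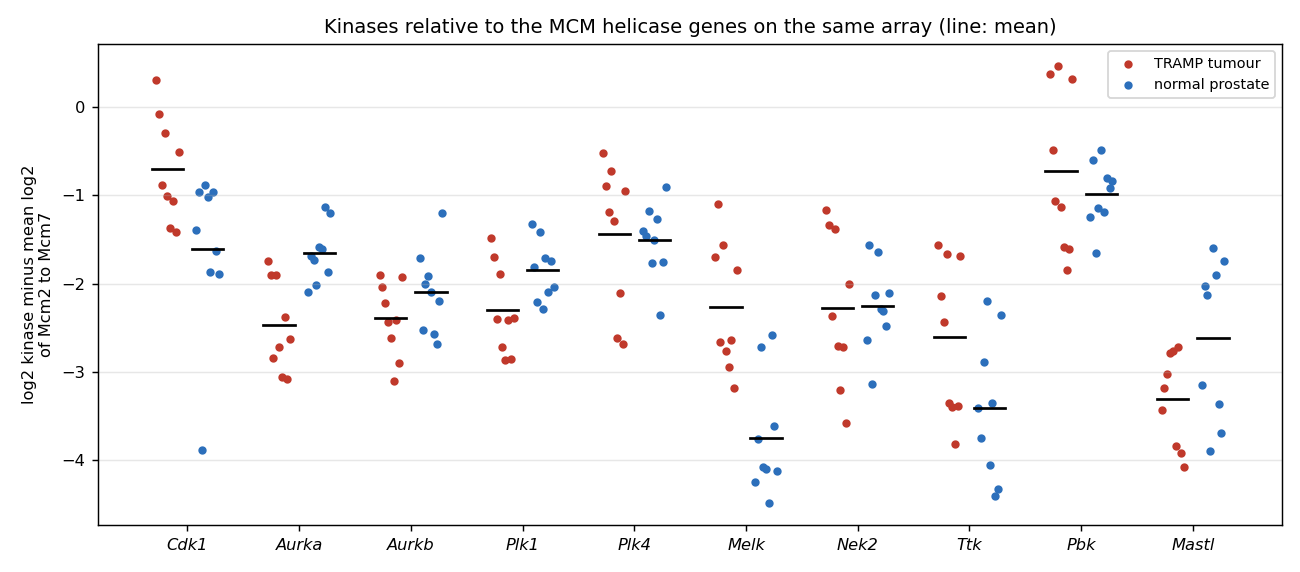
Each kinase's log2 value minus the mean log2 value of Mcm2 to Mcm7 on the same array, for TRAMP tumours (left of each pair, red) and normal prostates (right, blue). Points are arrays and lines are means. Aurka tumours sit lower, at a mean of -2.47 against -1.66 in normal prostates, and Melk tumours higher, by 1.48.

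Poly-A spike controls split the arrays into 2 technical batches, bright on 5 tumour and 6 normal arrays and dim on 4 tumour and 3 normal arrays. Within the first batch the 10 kinases differed by 1.69 to 4.22, and 8 were called higher, as were 684 of 18193 genes. Aurka and Mastl missed (limma adjusted p = 0.0553 and 0.0555). Within the second the 10 kinases differed by 1.37 to 3.55, and none was called by limma (adjusted p = 0.273 to 0.486). All 10 had an unadjusted limma p under 0.05, as did 1975 of 18193 genes in either direction. No member's difference was called different between the batches (limma interaction, smallest unadjusted p = 0.542). Markers of other tissues also differed between the groups: all 4 adipocyte genes and 3 of 6 luminal genes were lower in tumours, and 2 of 6 leukocyte genes and 2 of 4 fibroblast genes higher. Of the urothelium genes 1 of 4, Upk1a, was lower, and of the neuroendocrine genes 1 of 5, Ncam1, was higher. The summed leukocyte signal (log2) was 10.5 to 13.6 in tumours and 9.4 to 11.7 in normal prostates. It was highest in tumour 5, among the lowest in kinases, and lowest in tumour 9, among the highest. The summed luminal signal was 12.3 to 16.3 in tumours and 14.2 to 17.5 in normal prostates, lowest in tumours 1 and 9, and Pbsn was dim on all 9 tumour arrays as well as on normal prostate 9. The actin 3' to 5' ratio, which grows as RNA degrades, was 1.12 ± 0.507 (log2) in tumours and 1.71 ± 0.694 in normal prostates, and with it as a covariate all 10 kinases were still called.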

How the data were processed

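Biotin-labelled total RNA was read on Affymetrix arrays, per the labels' protocols. Per the submitters' processing notes the authors used MAS5, and the deposited intensity of each probe set is linear. No MAS5 version is given in these sources. MAS5 scales each array by 1 factor (the 2% trimmed mean of the intensities was 500 on all arrays), and its dim values are noisy. Detection calls were not used.

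Groups came from the labels. The platform table gives 34945 of 45101 probe sets 1 gene, 932 several and 9160 none; 64 are controls and were left out. Entrez identifiers of 34741 matched a mouse table of GRCm38.p6 and changed no symbol; promoters are RefSeq's of that build. Log2(signal + 16) was fitted with limma 3.58.1 in R 4.3.3 (group only, eBayes, Benjamini-Hochberg over 45037 probe sets, two-sided), without a filter; a filter above the 40th percentile on at least 9 arrays, which Ttk's probe set did not pass, was an alternative. The members and lists were chosen with earlier results of these data known, and counts over lists carry no test. Named were all members, up to 4 called genes of largest t and up to 2 uncalled of largest difference per list, and the 5 genes most like the members' mean. Other uncalled genes with a dimmer probe set called higher were added after their values were seen. The code was tested on simulated data. Figures used matplotlib 3.10.9 in Python 3.11.15.

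Alternatives were pseudocounts of 1 and 64, scaling, weights per array, robust eBayes with an intensity trend, the replicate number and the batch as blocks, each batch alone, other probe set choices, and leaving out arrays. The actin ratio as covariate, and Mad1l1 without normal prostate 9, were added after seeing the data. Replicate numbers did not pair the arrays: deviations of same-numbered arrays correlated by -0.077 to 0.35, with 1 of 9 pairs over 0.1.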

Additional observations from a re-analysis of the deposited data

Results flagged for a closer look

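Aurka measured 8.41 on normal prostate 7, far above the next normal prostate at 7.59, and this array alone set the overlap with tumours 3, 5 and 7. Dixon's ratio of the gap to the range exceeded its 95% critical value there. It was the only such case among 20 tests of the 10 kinases in both groups, and chance gives about 1 in 20.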

How the results depend on the processing

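All 10 kinases were called higher under both pseudocounts, all scalings, array weights, the intensity trend, the batch block, the mean of probe sets, the actin covariate and both omissions of arrays high in seminal vesicle genes. With the replicate number as a block 10 kinases and 2187 genes were called, so the block changed no member's call. The low-value filter left 9 kinases, Ttk being removed, and 9 were called. Without _s, _x and _a probe sets 8 could be read and 8 were called. Leaving out each array in turn gave 10 kinases throughout, a median log2 fold change of 2.32 to 2.75, and 2040 to 3110 genes called against 2612. In all fits but the batches alone the highest adjusted p of a kinase was 0.0449, for Aurka with the actin covariate.

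Batch 1 alone gave 1437 genes called. Batch 2 alone, with 3 normal arrays against 4 tumours, gave 1 gene and 0 kinases by limma, with 1975 genes at an unadjusted p under 0.05; fewer arrays enter each. With the actin covariate 1149 genes were called. Without normal prostate 9 and tumours 3, 5, 6, 7 and 8 the kinases' median was 3.76 and 4562 genes were called. Both this omission and the smaller one keep the tumours highest in the kinases, so calls that held under them do not test seminal vesicle tissue. Relative to the helicase genes 3 kinases were called in the full fit, 1 without normal prostate 9 and tumours 3, 5 and 7, and 2 to 3 without each array in turn. No share over all genes stands beside these counts. Values near 0 turned sign: Nek2, -0.019 in the full fit, was 0.106 with a pseudocount of 1, 0.16 without normal prostate 9 and tumours 3, 5 and 7, and -0.16 to 0.14 without single arrays. Plk4, 0.069 in the full fit, was -0.066 with a pseudocount of 64 and -0.047 to 0.22 without single arrays. Plk1 gained a call without tumour 1 (adjusted exact permutation p = 0.0374), and Ttk with a pseudocount of 1 (0.0498). The cause was not tested. Dim signal limits what can be said of Melk and Ttk in normal prostate, where only a bound on the level is available. The brightest probe sets of Aurkb, Nek2 and Mastl were each dim on 6 normal arrays, with floored differences of 2.06, 2.15 and 1.16. That of Plk1 was dim on 3 (floored 1.94).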

Other observations

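Within the normal prostates the kinases did not share an order. Normal prostates 3, 4, 5 and 9 were each the highest of the 9 for at least 1 kinase and the lowest for at least 1 other. In tumours, by contrast, numbers 1, 2 and 9 never ranked below 3 for any kinase, and number 5 never above 8. Tumours 1 and 9 were high in neuroendocrine genes, with summed signals (log2) of 13.9 and 14.7, and tumour 2, equally high in the kinases, was not, at 9.5. Tumour 4, at 12.8 in neuroendocrine genes, ranked from 4 to 7 in the kinases.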
